A study of Drosophila melanogaster with 4 samples.

Results

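The 10 genes described here were grouped as genes of the JAK/STAT signalling pathway of *Drosophila melanogaster*. They were chosen by symbol and are 10 of the 13945 protein-coding genes of the Ensembl annotation BDGP6.54. They comprise the secreted ligands *upd1*, *upd2* and *upd3*, the receptor *dome*, the related short receptor *et*, the Janus kinase *hop*, the transcription factor *Stat92E*, the SOCS-box proteins *Socs36E* and *Socs16D*, and the tyrosine phosphatase *Ptp61F*. For each gene, all peaks were taken whose summit lay in the gene body or within 5 kb of it, a stretch called the gene's window below.

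The study mapped where the protein Chinmo sits on chromatin by chromatin immunoprecipitation and sequencing (ChIP-seq). Chinmo is a transcription factor with a BTB domain and zinc fingers. The 4 biological replicates form 1 group. They are whole embryos aged 6 to 24 h of a transgenic strain that carries *chinmo* as a fusion with enhanced GFP, and the immunoprecipitation used an antibody against GFP according to the description, although the antibody field names Chinmo. Under the reading of the antibody field, untagged Chinmo would also have been pulled down. The age was taken from the source label, because the age field holds a number of hours no embryo could reach. All 4 libraries carry the fusion, and the separately labelled control libraries were not analysed here. A whole embryo mixes many cell types, so a peak does not tell in which cells the protein was bound.

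In this pathway, an Unpaired ligand binds the receptor Domeless, the kinase Hopscotch bound to the receptor is activated, and phosphorylated Stat92E dimerises and enters the nucleus, where it binds paired TTC and GAA letters. SOCS proteins and phosphatases dampen the signal, and *Socs36E* is itself a well-known target of Stat92E. In the fly the pathway acts in embryonic segmentation, in the tracheal system, in blood cells and in the stem cells of the testis, where *chinmo* is known to act downstream of it.

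The thresholded lists, deposited for each library, hold the peaks that passed the authors' irreproducible discovery rate (IDR) analysis, whose inputs are not stated. They had 3435, 4415, 2225 and 3038 peaks in replicates 1 to 4. The longer ranked lists had 39725, 27034, 30166 and 34150 peaks. The lists hold no read counts, so the depth of each library was unknown. Signal values are the authors' own and were used only to rank peaks within a list. Rank 1 is the strongest peak, and the rank percentile gives the share of peaks in that list, in percent, whose signal was no higher (100 for the strongest). A shared region is a cluster of thresholded summits, each extended by 100 bp both ways and merged on overlap, that held at least 3 of the 4 libraries. The genome had 2150 shared regions. Where a list has no peak there is no value at all, and binding under the threshold cannot be told from none.

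A shared region lay in the window of 6 of the 10 pathway genes, namely *dome*, *hop*, *Stat92E*, *Socs36E*, *Socs16D* and *Ptp61F*, against 28.5% of all protein-coding genes. These are the receptor, the kinase, the transcription factor, both SOCS-box genes and the phosphatase. The 3 ligand genes and *et* had none. In 5 of the 6, the strongest shared region by mean rank percentile lay within 50 bp of a transcription start site (TSS) of the gene, and in *Socs36E* it lay in an intron. Of all 13 shared regions in the windows, strong or weak, these 5 lay within 50 bp of a TSS of the pathway gene. A further region lay 21 bp from the TSS of another gene, *rho*. Among all 2150 shared regions, strong or weak, 649 lay within 50 bp of a TSS of any protein-coding gene.

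The sequences under the 6 regions are printed because each is the strongest shared region of its gene by mean rank percentile. In *Ptp61F* another shared region of the gene body ranked above the printed one in replicates 1 and 2. Each run lies within 100 bp of the region's centre, is the plus strand of the RefSeq genome of Release 6 (dm6) from 5′ to 3′, and leaves out bases annotated as UTR. The summits of replicates 1 and 2 at *Stat92E* and of replicate 2 at *dome* lie in left-out bases. All 6 genes are transcribed from the minus strand, so each of the 5 promoter runs begins at the base next to the TSS and goes upstream. Capitals mark matches, on either strand, to ACTATCG in *Stat92E*, *Socs16D*, *hop* and *Ptp61F*. In *dome* they mark a match to CAGGTAG on the other strand and then a STAT-type pair, and in *Socs36E* a CACACACA repeat.
Socs36E, intron, chr2L:18151396-18151596: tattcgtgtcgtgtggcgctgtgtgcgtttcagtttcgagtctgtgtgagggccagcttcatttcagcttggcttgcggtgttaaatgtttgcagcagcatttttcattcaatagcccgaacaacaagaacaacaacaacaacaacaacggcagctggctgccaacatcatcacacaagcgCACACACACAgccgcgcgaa
Stat92E, promoter of the downstream TSS, chr3R:20551108-20551213: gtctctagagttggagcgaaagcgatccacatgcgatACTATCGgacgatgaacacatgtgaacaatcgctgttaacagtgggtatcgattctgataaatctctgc
Socs16D, promoter, chrX:17827565-17827674: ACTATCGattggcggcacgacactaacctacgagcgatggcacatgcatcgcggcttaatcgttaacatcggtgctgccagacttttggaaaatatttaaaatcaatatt
hop, promoter, chrX:11368099-11368238: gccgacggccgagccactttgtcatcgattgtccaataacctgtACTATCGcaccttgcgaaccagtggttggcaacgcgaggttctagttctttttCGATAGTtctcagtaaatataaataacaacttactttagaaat
Ptp61F, promoter of an internal TSS, chr3L:1350600-1350715: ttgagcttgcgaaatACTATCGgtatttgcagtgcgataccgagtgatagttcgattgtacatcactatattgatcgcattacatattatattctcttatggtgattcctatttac
dome, promoter, chrX:19683519-19683657: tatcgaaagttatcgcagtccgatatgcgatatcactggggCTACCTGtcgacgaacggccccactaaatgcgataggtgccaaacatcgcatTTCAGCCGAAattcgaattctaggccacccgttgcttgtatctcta

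The letters ACTATCG, on either strand, were found within 100 bp of the region centre in 4 of the 5 promoter regions of the pathway genes, those of *hop*, *Stat92E*, *Socs16D* and *Ptp61F*. They were found in 0 of the 8 other shared regions in the windows. Those 8 include promoters of other genes, such as regions 21 bp from the TSS of *rho* and 126 bp from that of *CG6398*. These letters were picked after the sequences had been seen, so the count is a description. Among all 2150 shared regions 12.0% held them in the same width of 201 bp. The share was 27.1% of the 649 shared regions within 50 bp of a TSS, 0.919% of the 653 shared regions over 1000 bp from any TSS, and 5.69% of windows of that width around all 19252 protein-coding TSS. In a width of 101 bp the counts in the pathway genes stayed 4 of 5 and 0 of 8. The share in that width was 9.58% of all shared regions and 22% of those within 50 bp of a TSS. It was 0.766% of those over 1000 bp from any TSS and 3.62% of the windows around all TSS.

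The match began 1 bp upstream of the TSS in *Socs16D*, 16 bp upstream in *Ptp61F*, 38 bp upstream in *Stat92E*, and 45 and 98 bp upstream in *hop*, which had 2 matches. The *dome* promoter had no ACTATCG. The shorter run TATCG, which is contained in ACTATCG and was also picked after the sequences had been seen, occurred 6 times in the *dome* region, counting both strands, 4 times in that of *hop*, 3 times in those of *Stat92E* and *Ptp61F*, and 2 times in that of *Socs16D*. It was thus in 5 of the 5 promoter regions and in 0 of the other 8, against 71.2% of all shared regions within 50 bp of a TSS, 42.2% of all shared regions and 37.1% of TSS windows.

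Of 6 other motifs searched on both strands, the STAT letters TTCNNNGAA and the same pair with 4 free bases were in 0 of the 13 regions in windows of 101 bp, against 1.44% and 1.86% of all shared regions. In windows of 201 bp, *hop* held 1 match, TTCAGTGAA, starting 84 bp to the left of the centre, and *dome* held 1 match of the wider pair, TTCAGCCGAA. Among all shared regions 3.12% and 4.70% held them in that width. GAGAG was in 3 of the 13 regions in 101 bp, against 26.0% of all, and none of these 3 was a promoter region of a pathway gene. CACACACA was in 1 of 13, the region at *CG6398* upstream of *Socs16D*, against 9.16%, and CAGGTAG in 1 of 13, that of *dome*, against 0.419%. The CACACACA repeat printed for *Socs36E* lies outside the 101 bp. In 201 bp CACACACA was in 2 of 13, with *Socs36E* added, against 15.5%. TATCGATA, which overlaps TATCG, was in 0 of 13, against 8.51%. The GC content of the 101 bp windows had a median of 50.5% in the 13 regions and 48.5% in all shared regions.

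**Figure D1:**
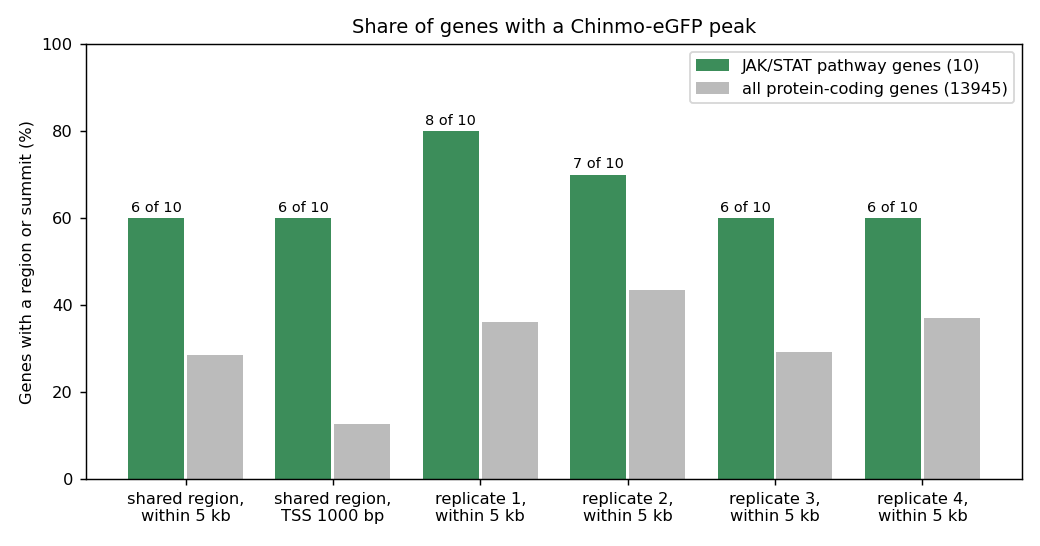
Share of genes with a Chinmo-eGFP peak, in percent, for the 10 JAK/STAT pathway genes (green, with the count of genes) and all 13945 protein-coding genes (grey). The left 2 pairs of bars are shared regions in the window and within 1000 bp of a TSS, the others are thresholded peaks of each replicate in the window, and the pathway bar is the taller one in all 6 pairs.

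By library, a thresholded summit lay in the window of 8 of the 10 pathway genes in replicate 1, against 36.2% of all genes. The count was 7 of 10 in replicate 2, against 43.4%. It was 6 of 10 in replicate 3, against 29.2%, and 6 of 10 in replicate 4, against 37.0%. The 6 genes with a shared region had a thresholded summit in every library. The plot of gene shares sets these counts beside the share of all genes.

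Longer genes have more chances to hold a peak, so the same count was read by gene length. Among genes with a body under 5 kb, 0 of 3 pathway genes had a shared region in the window, against 23.7% of all such genes. Between 5 and 20 kb it was 5 of 6, against 41.6%. The only pathway gene over 20 kb, *Ptp61F*, had one, against 46.6%. Within 1000 bp of a TSS, 6 of the 10 pathway genes had a shared region, against 12.7% of all genes.

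The windows, 293 kb in all where overlaps are counted once, held 13 shared regions, or 0.444 per 10 kb, against 0.161 per 10 kb over the chromosome arms. Thresholded peaks numbered 0.649, 0.615, 0.410 and 0.581 per 10 kb of the windows in replicates 1 to 4, against 0.257, 0.330, 0.166 and 0.227 over the arms. Ranked peaks numbered 4.07, 2.97, 3.25 and 3.90 per 10 kb of the windows, against 2.97, 2.02, 2.24 and 2.54 over the arms. The windows are centred on genes while the arms include long stretches between genes, and the part of this in the densities was not tested.

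**Figure D2:**
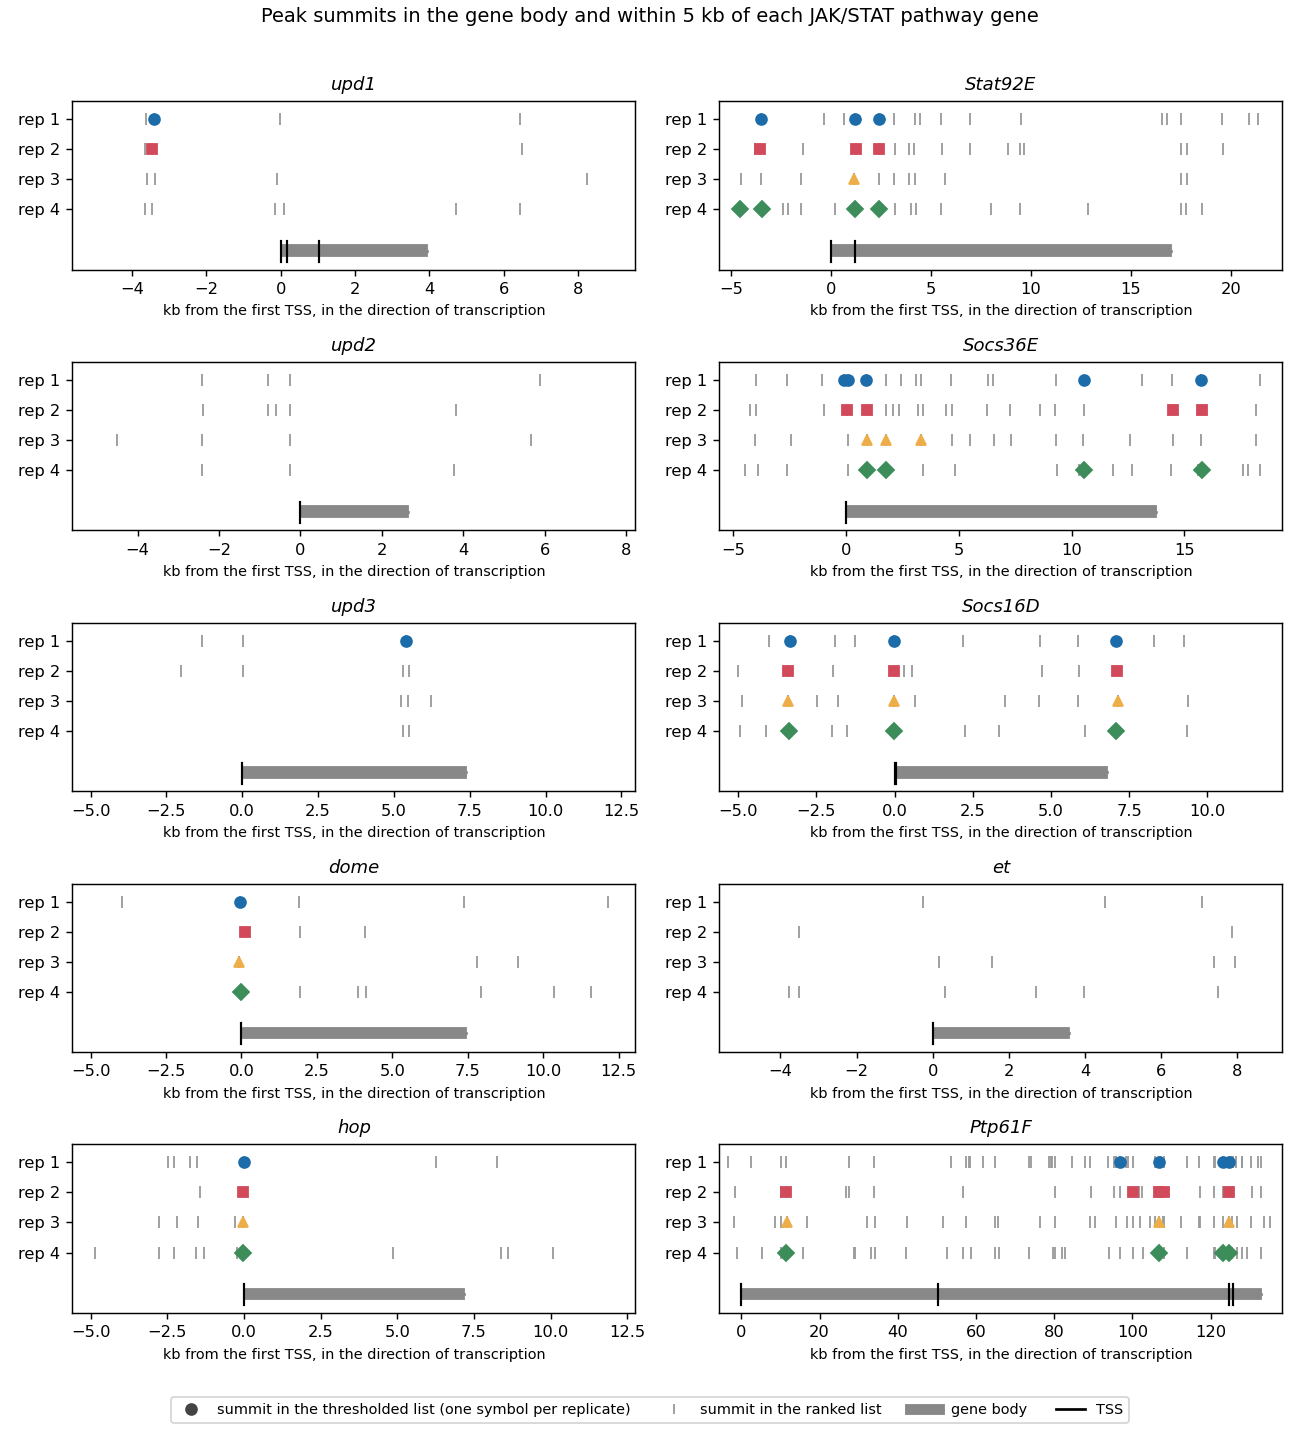
Peak summits in the window of each of the 10 pathway genes, by replicate (rows), as kb from the first TSS in the direction of transcription. Large symbols are summits of the thresholded lists, thin ticks those of the ranked lists, the grey bar is the gene body and black lines are TSS, and *upd2* and *et* have ticks only.

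Of the 13 shared regions, 9 were found in all 4 libraries and 4 in 3 libraries. The TSS nearest to the region was that of the pathway gene in 7 and that of another gene in 6. Within 1000 bp of a TSS of a pathway gene lay 6 regions, and 3 of these were also within 1000 bp of a TSS of another gene. The mean rank percentile had a median of 67.1 over the 13 regions and 62.2 over all shared regions. The SD between libraries had a median of 19.1 points in the 13 and 15.1 in all. The median distance to the nearest TSS was 126 bp in the 13 and 147 bp in all, and the median spread of the summits between libraries was 54 bp in both.

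**Figure D3:**
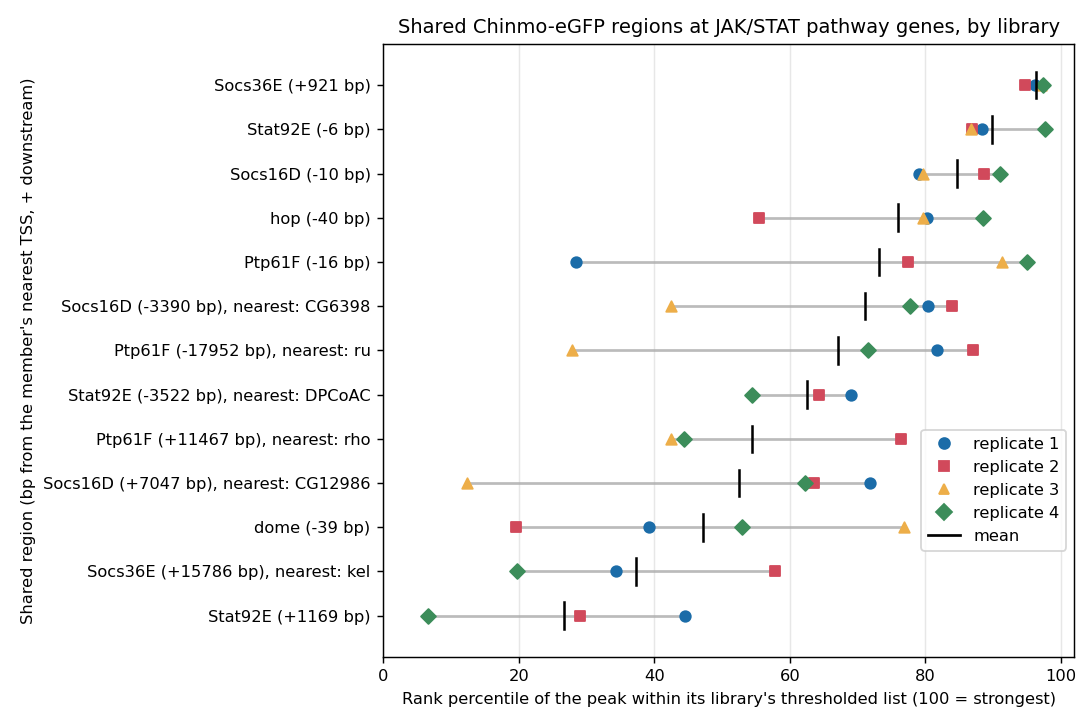
Rank percentile (100 = strongest) of the 13 shared regions in the windows of the JAK/STAT pathway genes in each replicate (symbols), with the mean (black bar). Labels give the distance of the region from the gene's nearest TSS and, where it is another gene, the gene with the nearest TSS. The top row, *Socs36E*, spans 94.7 to 97.3, and the *Ptp61F* promoter spans 28.5 to 95.0.

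The ligand genes lie together on the X chromosome, all coordinates being on dm6. *upd1* (FBgn0004956, X, 18305354 to 18309291, minus strand) encodes the ligand Unpaired, the founding ligand of the pathway in the embryo. A thresholded cluster of 2 libraries, just short of the 3 required, was centred 3430 bp upstream of it in intergenic sequence and 3180 bp from the TSS of *CG6023*. It ranked 1216 in replicate 1 and 1076 in replicate 2, which are rank percentiles of 64.6 and 75.7. Replicates 3 and 4 had a summit there only in the ranked lists, at ranks 5833 and 3178 with scores of 89 and 708, under the lowest score of 830 in the thresholded lists.

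*upd3* (FBgn0053542, X, 18277233 to 18284596, plus strand), a ligand known from responses to infection and injury, had 1 thresholded peak in replicate 1, in an intron 5392 bp downstream of its TSS. Its rank was 2431 and its percentile 29.3, with a score of 838. The strongest ranked peaks of replicates 2, 3 and 4 lay 5285, 5249 and 5285 bp downstream of the TSS with scores of 592, 248 and 647. The 4 libraries thus placed their strongest *upd3* peak in the same intron, but only replicate 1 was over the threshold.

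*upd2* (FBgn0030904, X, 18240654 to 18243284, minus strand), a ligand known also as a signal from the fat body, had no thresholded peak in any library. Its strongest ranked peaks held ranks 9287, 11200, 13324 and 6551 in replicates 1 to 4, with scores of 389, 166, 32 and 366. They lay 261, 263 and 261 bp upstream of the TSS in replicates 1, 2 and 4 and 2412 bp upstream in replicate 3. Their rank percentiles in the ranked lists were 76.6, 58.6, 55.8 and 80.8.

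The receptors are neighbours on the X chromosome. *dome* (FBgn0043903, X, 19676061 to 19683518, minus strand) encodes Domeless, a transmembrane receptor for the Unpaired ligands related to vertebrate cytokine receptors. Its single shared region spanned X 19683197 to 19683792, found in all 4 libraries, with its centre 39 bp upstream of the TSS and 251 bp from the TSS of the neighbour *Ubqn*, which encodes ubiquilin. The ranks were 2089, 3551, 514 and 1432 and the percentiles 39.2, 19.6, 76.9 and 52.9 in replicates 1 to 4, with a mean of 47.2 ± 24.1 (SD, n = 4). It stood at place 1576 of the 2150 shared regions by mean percentile, the lowest of the 6 genes.

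The summits at *dome* were 49, 77 and 29 bp upstream of the TSS in replicates 1, 3 and 4 and 106 bp downstream, in the 5′ UTR, in replicate 2. The spread of 183 bp is above the median of 54 bp over the 13 regions. With summits joined within 50 bp to each side, the region no longer held replicate 2, and its mean percentile was 56.4. The region lies between a pair of TSS, so the peak cannot be given to *dome* rather than *Ubqn*.

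*et* (FBgn0031055, X, 19672312 to 19675891, minus strand), eye transformer, encodes a shorter receptor known to dampen the pathway. It had no thresholded peak in any library. The strongest ranked peaks in its window held ranks 12265, 12210, 8064 and 6731 in replicates 1 to 4 with scores of 195, 87, 82 and 90. All 4 lay in an intron of the neighbouring gene *Zw*, 7072 to 7853 bp from the *et* TSS. It was the only pathway gene without summits of at least 3 libraries in the ranked lists at 1 place of its window. The other 9 of 10 had such a place, near the share of 80.3% of all genes.

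**Figure D4:**
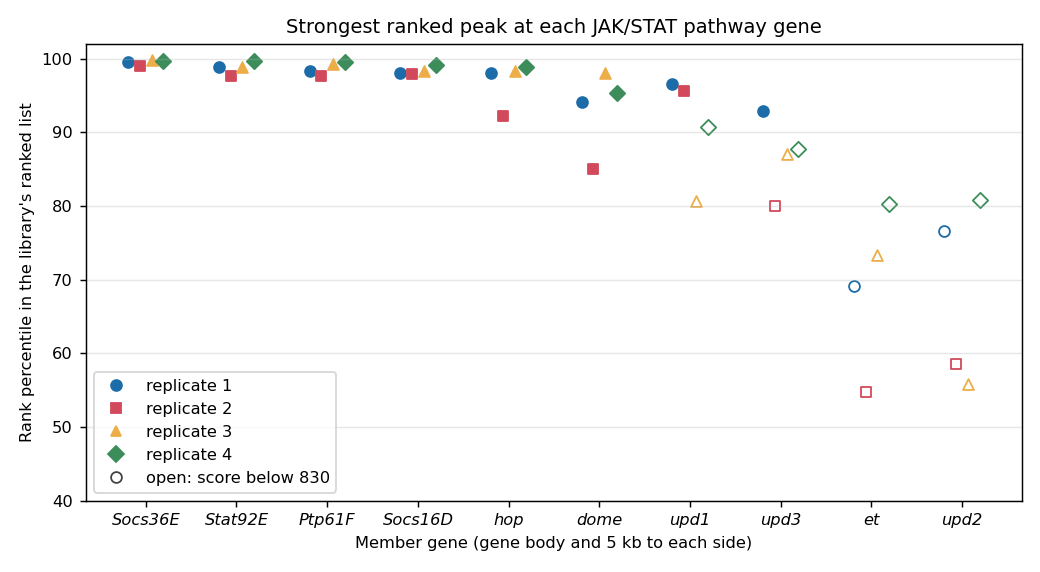
Rank percentile of the strongest peak in the window of each pathway gene in the ranked list of each replicate (symbols), genes ordered by their mean. Open symbols have a score below 830, the lowest score in the thresholded lists. All 4 symbols are filled for 6 genes and open for *et* and *upd2*.

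The kinase gene *hop* (FBgn0004864, X, 11360930 to 11368098, minus strand), which encodes the Janus kinase Hopscotch, had 1 shared region, X 11367916 to 11368353, in all 4 libraries. Its centre was 40 bp upstream of the TSS, and 307 bp from the TSS of *Tim8*, which encodes a mitochondrial import factor. The ranks were 679, 1970, 452 and 349 and the percentiles 80.3, 55.4, 79.7 and 88.5 over the 4 replicates in order, with a mean of 76.0 ± 14.3 (SD, n = 4). Replicate 2 was the lowest. As at *dome*, the region lies between the TSS of 2 genes, and the summits were within 33 bp of each other.

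*Stat92E* (FBgn0016917, 3R, 20535323 to 20552311, minus strand) encodes the STAT transcription factor of the fly and had 3 shared regions. The strongest, 3R 20551034 to 20551264, lay at the downstream one of its 2 TSS, 1204 bp from the other, with its centre 6 bp upstream. It ranked 402, 580, 298 and 75 in replicates 1 to 4. The percentiles were 88.3, 86.9, 86.7 and 97.6, a mean of 89.9 ± 5.19 (SD, n = 4), with replicate 4 above the other three. It stood at place 214 of 2150, and no other gene's TSS was within 1000 bp.

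The other 2 regions of *Stat92E* were weaker and each lacked replicate 3. The intronic one, 3R 20549723 to 20550154, was centred 1169 bp downstream of the same, inner TSS and had percentiles of 44.5, 29.0 and 6.68 in replicates 1, 2 and 4. The third, 3R 20555585 to 20556108, was 3522 bp upstream of the outer TSS of *Stat92E*, in an intron of *DPCoAC* and 1424 bp from the *DPCoAC* TSS. Its percentiles were 69.0, 64.3 and 54.4 in replicates 1, 2 and 4. In the ranked list of replicate 3 the regions were present at ranks 4038 and 2946 with scores of 784 and 774, just under the threshold of 830.

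*Socs36E* (FBgn0041184, 2L, 18138675 to 18152417, minus strand), the best-known feedback inhibitor of the pathway, held the strongest shared region of all 10 genes. It spanned 2L 18151285 to 18151714, in an intron, centred 921 bp downstream of the TSS. The ranks were 131, 234, 67 and 84 and the percentiles 96.2, 94.7, 97.0 and 97.3 in the replicates in order, with a mean of 96.3 ± 1.15 (SD, n = 4). It stood at place 81 of 2150. The summits lay 910, 917, 926 and 930 bp downstream of the TSS, so the libraries differed by little both in place and in rank percentile.

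The other peaks of *Socs36E* varied more between libraries. A second shared region, 2L 18136416 to 18136891, lay past the 3′ end of the gene in an intron of *kel*, 1452 bp from the TSS of *kel*, which encodes the ring canal protein Kelch. It had percentiles of 34.3, 57.8 and 19.7 in replicates 1, 2 and 4 and rank 3444 with a score of 192 in the ranked list of replicate 3. Clusters of 2 libraries lay near the *Socs36E* TSS, in its intron and in its coding sequence. The one nearest to the TSS, 66 bp downstream in the 5′ UTR, was called in replicates 1 and 2 at percentiles of 45.2 and 58.7.

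*Socs16D* (FBgn0030869, X, 17820764 to 17827564, minus strand) encodes another protein with a SOCS box and had 3 shared regions, each in all 4 libraries. The promoter region, X 17827370 to 17827772, was centred 10 bp upstream of the TSS. Its ranks were 722, 500, 453 and 274 and its percentiles 79.0, 88.7, 79.7 and 91.0 in the replicates in order, with a mean of 84.6 ± 6.15 (SD, n = 4). The region at the upstream neighbour *CG6398*, X 17830718 to 17831186, lay in its 5′ UTR 126 bp from its TSS and had percentiles of 80.4, 84.0, 42.5 and 77.7. The third, X 17820232 to 17820687, was intergenic past the 3′ end, 788 bp from the TSS of *CG12986*, with percentiles of 71.9, 63.6, 12.3 and 62.3. Replicate 3 stood far below the others at these 2 outer regions but not at the promoter. These percentiles are within thresholded lists of unequal length, and that of replicate 3 is the shortest. In the ranked lists replicate 3 stood at 95.3 at *CG6398*, against 97.1 to 98.1 in the others. At the third region it stood at 92.0, against 93.6 to 97.3.

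*Ptp61F* (FBgn0267487, 3L, 1342493 to 1475257, minus strand), a tyrosine phosphatase that dampens the pathway, is the longest of the 10 genes and contains other genes within its introns. Its promoter region, 3L 1350391 to 1350828, was centred 16 bp upstream of an internal TSS, 124658 bp downstream of the gene's outermost TSS, and 501 bp from the TSS of *CG9166*. As at *dome*, the centre lies between these TSS, so the peak cannot be given to *Ptp61F* rather than *CG9166*. The ranks were 2457, 994, 194 and 153 and the percentiles 28.5, 77.5, 91.3 and 95.0 in the replicates in order, with a mean of 73.1 ± 30.7 (SD, n = 4). Replicate 1 was the lowest, and the SD was the largest of the 13 shared regions.

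The other 2 shared regions in the *Ptp61F* gene body were nearer to genes nested in it. One, 3L 1368336 to 1368765, was 2077 bp from the TSS of *ru*, with percentiles of 81.7, 87.1, 27.9 and 71.6 in replicates 1 to 4. In replicates 1 and 2 it stood above the promoter region, which had 28.5 and 77.5 there. Its mean of 67.1 was below the 73.1 of the promoter region. The other, 3L 1463494 to 1464026, was 21 bp from the TSS of *rho*, with percentiles of 76.4, 42.4 and 44.4 in replicates 2, 3 and 4. Both *ru* and *rho* encode rhomboid proteases of the EGF receptor pathway. In replicate 1 the region at *rho* held rank 1320 in the ranked list with a score of 109.

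Across the 9 regions found in all 4 libraries, replicate 4 had the highest percentile in 5 and the lowest in 0, and replicate 3 had the lowest in 4. At the 4 regions found in 3 libraries, the library without a thresholded peak had a ranked summit within 100 bp of the centre in 4 of 4 cases, against 84.6% of the 983 such cases among all shared regions. Replicate 3, which had the shortest thresholded list, was the missing one at 3 of the 4.

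Other genes of the pathway were read from 2 lists. Of 10 regulators and partners, 4 had a shared region in the window, set beside the 28.5% of all genes. The strongest region of each is described, and *ken* and *Cdk4* had 2 each. *apt*, which encodes the transcription factor Apontic, had one in all 4 libraries 150 bp upstream of a TSS with a mean percentile of 86.4 ± 8.18 (SD, n = 4). *ken* encodes a BTB zinc finger repressor that acts on some Stat92E targets, and its strongest region was found in all 4 libraries 114 bp downstream of a TSS, with a mean of 76.5 ± 17.2 (SD, n = 4). *Cdk4* encodes a cyclin-dependent kinase, and its strongest region was found in 3 libraries 2545 bp downstream of a TSS at 64.8 ± 16.1 (SD, n = 3). The region in the window of *Socs44A* was 4588 bp from its TSS and 14 bp from that of *Asap*, at 58.7 ± 15.3 (SD, n = 3). *Su(var)2-10*, *asrij*, *Stam*, *Hrs*, *E(bx)* and *CycD* had none, although *Hrs* had thresholded peaks in replicates 1 and 2.

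Of 8 genes known to respond to the pathway, 1 had a shared region in the window, against 28.5% of all genes. That was *chinmo* itself, the gene of the protein that is tagged in these embryos. It had 11 shared regions, the strongest at a mean percentile of 99.9 ± 0.0846 (SD, n = 4). *zfh1*, *TotA*, *TotC*, *TotM*, *vir-1*, *trh* and *eve* had none, although *zfh1*, *TotM*, *vir-1* and *trh* had a thresholded peak in 1 or 2 libraries.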

How the data were processed

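ChIP-seq peak lists of 4 biological replicates (1 group) were used, with a signal and a score per peak as the authors deposited them. The signal has no unit stated and the score runs to 1000. The assembly is dm6, per the labels. Neither aligner nor peak caller nor the inputs of the IDR analysis is given in the sources used here. The deposited summit offset of each peak (another column) gave its position, as start plus offset, 1-based.

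Peaks off the main chromosome arms were dropped (3 thresholded peaks, all in replicate 3). Genes were those of Ensembl BDGP6.54 (release 115), and bases were read from RefSeq's Release 6 genome. Python 3.11.15, pandas 2.3.3, NumPy 2.4.6 and matplotlib 3.10.9 were used, and the clustering was tested on simulated data.

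With 1 group no comparison between groups was tested, the spread between libraries was checked with Dixon's criterion, and counts stand beside the share of all protein-coding genes. The 10 genes, the 2 further lists and the motifs were chosen with earlier results of these data known, and ACTATCG and TATCG after the sequences were seen. Named genes are the 10, the genes with a TSS nearest to or within 1000 bp of their shared regions, *CG6023* and *Zw* beside peaks of fewer libraries, which were chosen after their values were seen, and the further lists. Alternatives varied the window, the TSS distance, the number of libraries, the joining of summits, the libraries used, the list and the motif width.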

Additional observations from a re-analysis of the deposited data

Results flagged for a closer look

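The 9 shared regions of the pathway genes with values in all 4 libraries were checked for a library standing apart, by the gap of the highest or lowest library to its neighbour as a share of the whole range, against Dixon's critical value. This picked out 3 of the 9 regions, against 98 of all 1167 regions found in 4 libraries. Chance gives about 1 in 20 for independent values, but the regions share the same 4 libraries. At the *Stat92E* promoter, replicate 4 stood above the others, with a rank percentile of 97.6 against 86.7 to 88.3. At the intergenic region past the 3′ end of *Socs16D*, replicate 3 stood below the others, with 12.3 against 62.3 to 71.9. At the region in the 5′ UTR of *CG6398*, upstream of *Socs16D*, replicate 3 stood below the others, with 42.5 against 77.7 to 84.0. All these percentiles are within thresholded lists of unequal length, and that of replicate 3 is the shortest. In the ranked lists replicate 3 stood at 92.0 at the intergenic region, against 93.6 to 97.3 in the others. At *CG6398* it stood at 95.3, against 97.1 to 98.1.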

How the results depend on the processing

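The 6 genes with a shared region were the same where all 4 libraries were required and without replicate 1 or replicate 2. Joining summits within 50 or 200 bp to each side also gave 6 genes and 13 shared regions. With 50 bp the *dome* region no longer held replicate 2. Leaving out 1 library in turn, and requiring 2 of the 3 left, gave 6 to 7 genes with a shared region in the window, against 31.8% to 37.0% of all genes. It gave 14 to 17 shared regions, and 6 genes with one at a TSS in each case. The share of all genes with one at a TSS is not given for these settings. *upd1* was the gene added without replicate 3 or replicate 4, and both of these libraries moved its call. Without replicate 3 the strongest region of *Ptp61F* was the one near *ru*, at a mean percentile of 80.2, and not the promoter region. In libraries without a thresholded peak, the ranked summits at the 4 regions were 3 within 50 bp and 4 within 200 bp.

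In the gene body alone, 3 pathway genes and 6 shared regions were left, against 7.15% of all genes. In a window of 1000 bp it was 6 pathway genes, against 16.6% of all genes, and in 10000 bp 7, against 40.1%. With at least 2 libraries it was 7, against 39.6%, and with all 4 it was 6, against 17.7%. In the upper 50% of each list it was 5, against 16.7%, with *dome* lost. At a TSS distance of 500 bp 5 genes had a region (*Socs36E* no longer), and at the wider distance tried 6. The share of all genes at these 2 distances is not given, so these counts stand alone. The conservative list of the whole series gave 26 peaks in the windows and 7 pathway genes, with *upd3* added, against 46.9% of all genes. The longest list gave 52 peaks and 9 pathway genes, all but *et*, against 73.4%. Its peaks at *upd1* lay past the 3′ end of the gene, at percentiles of 12.1 and 0.282. Neither list of the whole series had a peak at the cluster upstream of *upd1*. Ranked by the deposited score in place of the signal, the strongest regions of *Stat92E*, *Socs36E*, *Socs16D*, *hop*, *Ptp61F* and *dome* had mean percentiles of 64.7, 64.1, 64.1, 64.1, 63.4 and 48.7. The score cannot order strong peaks, since 22 of these 24 peaks and 67.9% to 75.6% of each list are tied at its top value of 1000. No paired analysis was possible because there is 1 group. The libraries have no known depth, so the weaker peaks have no error of their own.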

Other observations

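In the conservative list deposited for the series as a whole, for which the sources do not say which libraries were compared, the strongest peak of *Socs36E* held rank 99 of 5841, that of *Stat92E* rank 275, that of *Socs16D* rank 331, that of *Ptp61F* rank 509, that of *hop* rank 724 and that of *dome* rank 2048. The order of the 6 genes is that of their mean percentiles over the 4 libraries, save that *Ptp61F* and *hop* changed places. The file notes derive this list from the same 4 libraries, so it is not independent of their order. The only ligand with a peak in it was *upd3*, in the intron 5290 bp downstream of the TSS at rank 3542.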
